A study of Homo sapiens with 8 samples.

Results

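ETV1 and 9 other genes of the ETS family of transcription factors are described here in LNCaP, an androgen-responsive line established from a human prostate cancer metastasis. The 10 genes were ETV1, SPDEF, EHF, ELF3, ELF1, GABPA, ELK1, ETS2, ERF and ETV3. They were taken by name out of the 55737 genes of the deposited table, and all 10 passed the filter on low values that left 19393 genes for testing. RNA was sequenced 4 hours after treatment in 4 groups of 2 libraries, all from the same cell line. The control group received control treatment only. The OSMI-2 group received 40 µM of an inhibitor of OGT (O-GlcNAc transferase), which adds single N-acetylglucosamine sugars to nuclear and cytoplasmic proteins. The AT7519 group received 0.5 µM of an inhibitor of cyclin-dependent kinases, CDK9 among them, the kinase that releases paused RNA polymerase II. The combination group received both agents at those doses. The series design states these doses in µM, whereas the protocol in the labels writes mM after each figure. The labels do not say whether replicates came from separate cultures, so a p-value here reflects only how far these libraries scatter, and that scatter may be technical. A line grown in culture carries no stroma, and LNCaP carries a rearranged ETV1 gene, so its ETV1 levels stand for this line.

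ETS factors share a winged helix-turn-helix domain that binds DNA around a GGAA core, and they differ in their partners, their phosphorylation sites and the tissues that express them. In prostate epithelium SPDEF, EHF and ELF3 belong to the luminal programme, whereas ETV1 is known as an oncogene that chromosomal rearrangements place under androgen-driven sequences. In LNCaP the whole ETV1 gene is inserted near MIPOL1 and FOXA1 on another chromosome.

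The windows around the annotated starts are shown for 5 of the genes because they span the results that follow: ETV1, whose RNA moved little on the deposited scale, GABPA and ELF1, which fell with AT7519, ELF3, which moved in opposite directions with AT7519 and the combination, and ETS2, which fell most. Each runs 5′ to 3′ on the gene's own strand from 250 bases before to 50 bases after the most upstream RefSeq start (build GRCh38.p14), with the ETS consensus core (CCGGAA, or TTCCGG on the other strand) and the TATA box (TATAAA, or TTTATA) in capitals. They lie at chr7:13991376-13991675 on the minus strand for ETV1, chr21:25734722-25735021 on the plus strand for GABPA, chr13:41061337-41061636 on the minus strand for ELF1, chr1:202010337-202010636 on the plus strand for ELF3, and chr21:38804933-38805232 on the plus strand for ETS2.
ETV1: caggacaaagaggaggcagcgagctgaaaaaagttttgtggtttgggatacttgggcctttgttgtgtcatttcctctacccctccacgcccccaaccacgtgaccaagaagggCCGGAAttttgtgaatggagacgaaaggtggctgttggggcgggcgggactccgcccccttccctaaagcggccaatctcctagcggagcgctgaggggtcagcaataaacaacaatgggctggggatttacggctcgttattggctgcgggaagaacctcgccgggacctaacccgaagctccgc
GABPA: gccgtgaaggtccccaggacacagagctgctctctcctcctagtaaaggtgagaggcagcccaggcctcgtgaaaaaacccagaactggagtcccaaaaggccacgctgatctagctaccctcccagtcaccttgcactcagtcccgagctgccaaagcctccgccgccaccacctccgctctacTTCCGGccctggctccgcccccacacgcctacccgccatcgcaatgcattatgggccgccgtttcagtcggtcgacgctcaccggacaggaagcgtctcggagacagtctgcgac
ELF1: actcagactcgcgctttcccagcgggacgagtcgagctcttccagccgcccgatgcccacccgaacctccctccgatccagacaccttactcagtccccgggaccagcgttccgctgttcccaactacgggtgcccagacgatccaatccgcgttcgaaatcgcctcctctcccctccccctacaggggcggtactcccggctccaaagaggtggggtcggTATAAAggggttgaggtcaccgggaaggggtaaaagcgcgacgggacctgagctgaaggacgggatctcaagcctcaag
ELF3: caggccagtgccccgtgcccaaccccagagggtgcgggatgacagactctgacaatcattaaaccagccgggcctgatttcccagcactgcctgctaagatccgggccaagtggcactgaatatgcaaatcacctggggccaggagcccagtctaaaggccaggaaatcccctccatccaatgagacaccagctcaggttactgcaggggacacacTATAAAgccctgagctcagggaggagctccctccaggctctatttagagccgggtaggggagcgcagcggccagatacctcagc
ETS2: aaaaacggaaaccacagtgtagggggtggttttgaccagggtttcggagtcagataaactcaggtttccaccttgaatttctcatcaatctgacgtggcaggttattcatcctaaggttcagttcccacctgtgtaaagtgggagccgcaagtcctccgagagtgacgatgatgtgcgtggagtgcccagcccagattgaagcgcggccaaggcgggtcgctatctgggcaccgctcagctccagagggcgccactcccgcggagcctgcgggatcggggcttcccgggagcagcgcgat
The ETS core stood 136 bases before the start in the ETV1 window and, on the other strand, 65 bases before it in the GABPA window. All 10 genes had at least 1 window, 21 in all, 6 of them of ETV1. The core was in 4 windows of 2 genes (ETV1 and GABPA), against 17.2% of all 35116 promoter windows of this length. Windows 3 and 4 of ETV1 nearly coincide and hold the same site, 137 and 141 bases before their starts, so the 4 windows are not separate sites. The TATA box was in 1 window each of ELF1 and ELF3, 29 and 34 bases before the start, against 11.5% of all windows. The ETS2 window shown held neither. A match is a description of these letters and not a bound site.

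Depth and identity of the libraries were as follows. Recovered reads ran from 60152710 to 154367238 per library, so that 3 reads, taken as the floor of detection, equalled 1.76 to 5.47 normalised counts, which limits counting error only. The lowest read number of any of the 10 genes in a library was 51, for ETS2. Luminal prostate markers were above the floor in all 8 libraries for 10 of 10 genes, with summed levels of 431224 to 532438 normalised counts, whereas summed leukocyte markers reached at most 18.6. Summed basal markers were 41.8 to 106, neuroendocrine markers 61.4 to 99.4 and endothelial markers 1132 to 1506, the last carried by VWF. Summed fibroblast markers, carried by COL1A1 and COL3A1, were 2173 to 2927 without AT7519 and 3185 to 4302 with it, and mitochondrial mRNAs took 4.45% to 5.53% of reads without AT7519 and 6.57% to 7.73% with it. The part of either in the results below was not tested. Of the treatments' own genes, OGT had a log2 change of 0.37 with OSMI-2 (adjusted p = 0.0434), which was not called in 9 of 20 alternative settings, those without either control replicate (0.109 and 0.399), either OSMI-2 replicate (0.216 and 0.245) or either combination replicate (0.0605 and 0.0604) among them. HEXIM1, the inhibitor of the CDK9 complex, fell by 1.64 with AT7519 (adjusted p = 7.09e-08), called in all 20. In bulk RNA, fewer cells of a type and less RNA per cell cannot be told apart.

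EHF had the highest level of the family, followed by SPDEF and ETV1. Levels were compared between genes as normalised counts per kilobase of the union of annotated exons, over all 28 ETS genes of the table. In control, EHF stood at 9041 and 10125 per kb, SPDEF at 3208 and 4057, and ETV1 at 3088 and 3487. EHF was above every other ETS gene in both control libraries, whereas the ranges of SPDEF and ETV1 overlapped, and with the length of the longest transcript in place of the exon union ETV1 came before SPDEF. ELK1 followed at 1256 and 1275 per kb, behind ELK4, an ETS gene outside the 10, at 1527 and 1627. ETV3 at 1010.2 and 1013.6, ELF1 at 999 and 1025 and GABPA at 887 and 1000.1 per kb were neighbours whose order rested on differences within or near the spread between libraries. ERF lay at 846 and 824 per kb, ELF3 at 416 and 406 and ETS2 at 147 and 141, the lowest of the 10. Together the 10 genes made up most of the family's signal, with a sum of 20897 and 23354 per kb of the 23683 and 26173 per kb of all 28 genes in control.

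**Figure D1:**
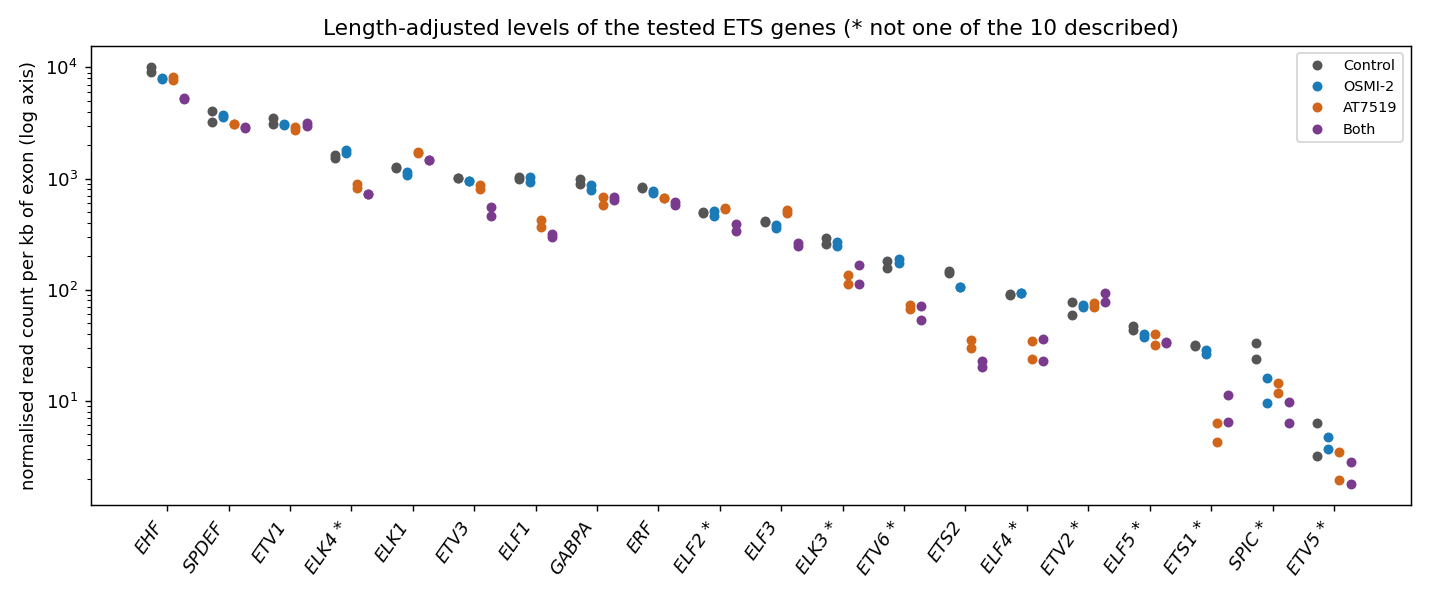
Normalised counts per kilobase of exon for the 20 tested ETS genes, on a log axis, each point 1 library, each colour a treatment group and an asterisk for genes outside the 10. EHF is highest in control at 9041 and 10125 per kb and ETS2 is the lowest of the 10 at 147 and 141, and lower still at 35.6 and 29.7 with AT7519.

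The family's summed level was lower where AT7519 was present. It was 23683 and 26173 per kb in control, 22803 and 22761 with OSMI-2, 20913 and 20033 with AT7519, and 16535 and 16445 with both agents. The combination libraries were the lowest and did not overlap with any other group. EHF made up 38.2% and 38.7% of that sum in control and 31.3% and 32.4% with the combination, whereas ETV1 made up 13.04% and 13.32% in control and 19.0% and 18.2% with the combination. No test was made of these shares.

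With OSMI-2 alone, none of the 10 genes was called. A gene was called at a Benjamini-Hochberg adjusted p below 0.05 in a limma model over all tested genes. In this comparison 3.02% of them were called, 0.645% higher and 2.38% lower. At an unadjusted p below 0.05 there were 2 of the 10 (EHF and ETS2), edgeR called 0 and DESeq2 called 1 (EHF, adjusted p = 0.0272). The log2 changes were below 0 for 9 of 10 genes, with a median of -0.14 against -0.02 over all tested genes. The largest was that of ETS2 at -0.45 (SE 0.18, adjusted p = 0.199), followed by EHF at -0.26 (SE 0.07, adjusted p = 0.0762).

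With AT7519, 7 of the 10 genes fell and 2 rose, where 27.2% of all tested genes fell and 26% rose (53.2% in either direction). Calls were more frequent among higher genes: of 15285 with a mean of at least 50, 4740 fell and 4766 rose. ETS2, ELF1 and GABPA fell most, and ELK1 and ELF3 rose. The median log2 change was -0.27 against -0.0042 over all tested genes. The rises depend on the scale: with libraries set to equal totals, which moved the median of all genes by -0.34, ELK1 came to 0.10 and ELF3 to -0.04, and with mitochondrial mRNAs set equal, which moved it to -0.91, they came to -0.47 and -0.62. The background moved too: 43.1% of all tested genes fell and 10.5% rose with equal totals, and 75.6% fell and 1.97% rose with equal mitochondrial mRNAs, where 8 and 10 of the 10 genes fell and 0 rose.

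With the combination against control, 8 genes fell and 1 rose, where 27.6% of all tested genes fell and 26.3% rose (53.9% in either direction). The median was -0.61 against 0.02 over all tested genes. With equal totals 9 of the 10 genes and 38% of all tested genes fell (13.7% rose), and with equal mitochondrial mRNAs 10 and 75.2% (2.19% rose). Against AT7519 alone, 5 genes fell and 0 rose (ELF3, ETV3, EHF, ETS2 and ELF1), where 12.5% of tested genes fell and 7.21% rose (19.7% in all), with a median of -0.30 against -0.02. The order of that background turns over with equal totals (7.91% fell and 10.4% rose) and with equal upper quartiles (7.43% fell and 11.3% rose), where 3 of the 10 genes fell and 0 rose. Against OSMI-2 alone, 8 fell and 1 rose, where 27.3% fell and 27.5% rose (54.8% in all), with a median of -0.45 against 0.04. With equal totals 40.5% of tested genes fell and 11% rose, and with equal mitochondrial mRNAs 69.7% and 2.17%. These comparisons share libraries with each other and with those above. The interaction, which asks whether the effect of OSMI-2 with AT7519 differs from its effect without, was called below 0 for 2 of the 10 genes (ELF3 and ETV3), where 0.975% of tested genes were called below 0 and 0.0619% above (1.04% in all).

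**Figure D2:**
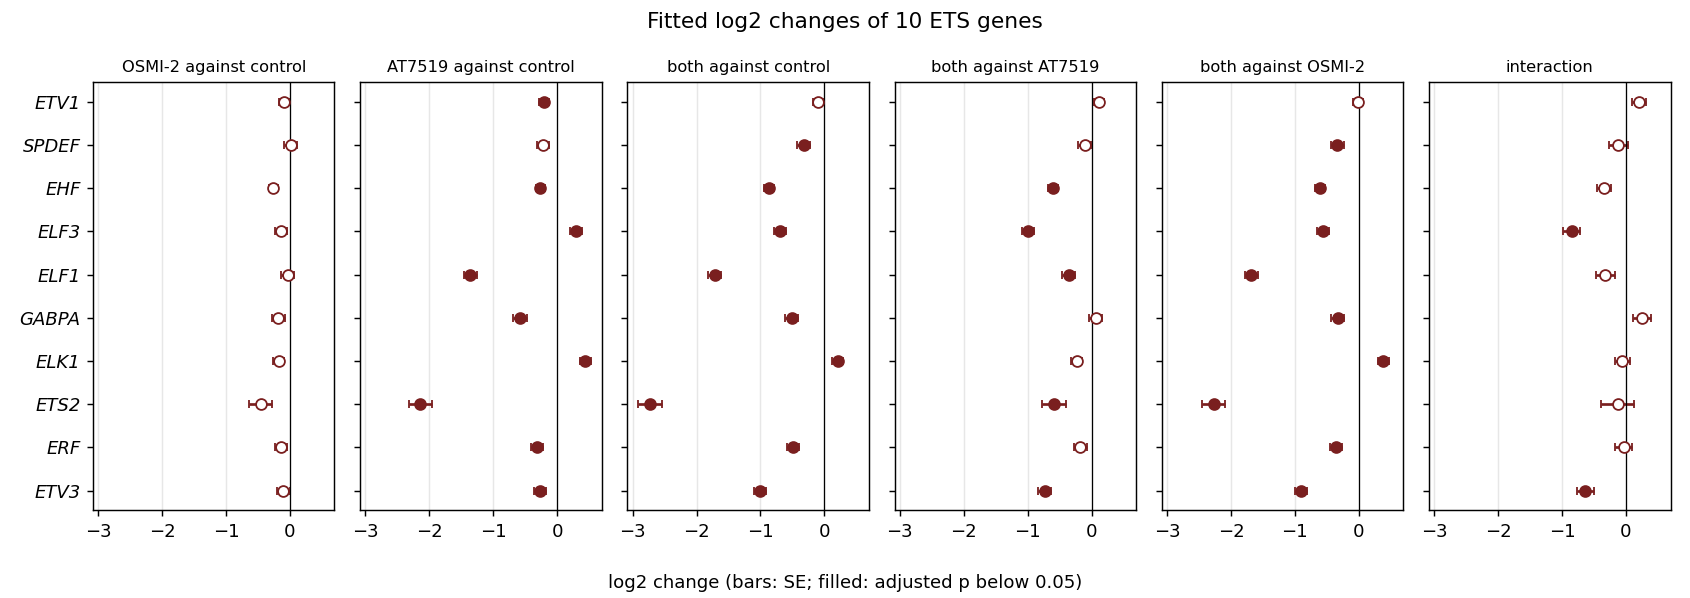
Log2 change of each of the 10 genes in the 6 comparisons, with standard errors from limma as bars, filled points called and open points not called. All points are on the deposited scale. Those of ETV1 lie between -0.21 and 0.21. Those of ETS2 and ELF1 lie far below 0 wherever AT7519 is compared with its absence, and ELK1 lies above 0 there. With mitochondrial mRNAs set equal, which is not drawn here, ELK1 came below 0 in those comparisons.

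ETV1, an activator of the PEA3 group, kept a high level in every group on the deposited scale. It stood at 29692 and 33528 normalised counts in control, 30074 and 29191 with OSMI-2, 28107 and 26423 with AT7519, and 30189.6 and 28834 with both agents. The AT7519 libraries were the lowest, and the combination libraries lay within or just below the range of the libraries without AT7519. With AT7519 it fell by 0.21 on the log2 scale (SE 0.08, adjusted p = 0.0317), a call that was lost in 5 of 20 alternative settings, among them those without control replicate 2 (adjusted p = 0.286) and AT7519 replicate 2 (0.157). The same change was larger, and called, with equal totals (-0.55), after quantile normalisation (-0.60) and with equal mitochondrial mRNAs (-1.13). With the combination the log2 change was -0.10 (95% interval -0.26 to 0.07, adjusted p = 0.31). It was 0.04 with upper quartiles set equal, whereas equal totals and quantile normalisation each gave -0.36 and equal mitochondrial mRNAs -1.08, all of them called. Against AT7519 alone the combination stood at 0.11 for ETV1 (adjusted p = 0.335), not called. This last change was called only after quantile normalisation (0.24, adjusted p = 0.0327). It was 0.20 with equal totals, 0.21 with equal upper quartiles and 0.05 with equal mitochondrial mRNAs, none of them called. The genes whose log2 changes over the 6 treated libraries lay nearest to those of ETV1, among 11350 candidates, were CRY1, CLIP1 and RAB3IP, with root mean square distances of 0.019, 0.035 and 0.041 against a median of 0.443. Genes picked as the nearest must lie below the median, so these distances are description only.

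Of 7 neighbours of the 10 genes, 4 rose and 1 fell with AT7519, 4 rose and 1 fell with the combination against control, and 1 fell with OSMI-2. Over all tested genes, 26% rose and 27.2% fell with AT7519, 26.3% and 27.6% did so with the combination, and 2.38% fell with OSMI-2. Those of ETV1 at its insertion site were among them. FOXA1, a pioneer factor of the luminal epithelium, rose with AT7519 by 0.51 on the log2 scale (adjusted p = 6.5e-05), but was 0.17 with equal totals and 0.12 after quantile normalisation, neither called (adjusted p = 0.0586 and 0.172), and -0.40 with mitochondrial mRNAs set equal. MIPOL1 rose with the combination by 0.40 (adjusted p = 0.00331), a call lost with equal totals (0.14, adjusted p = 0.241) and without control replicate 1 (0.28, adjusted p = 0.0602), and was -0.58 with mitochondrial mRNAs set equal. DGKB, beside ETV1 at its native locus, was not called in any of the 6 comparisons, with 0.12 for AT7519 and -0.09 for the combination. The differences between ETV1 and these genes were not tested.

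SPDEF, the prostate-derived factor of luminal and secretory epithelia, was lower with the combination by an amount that depended on the scale. Its values were 6139.6 and 7765 normalised counts in control, 7165 and 6783 with OSMI-2, 5959.8 and 5892 with AT7519, and 5483 and 5549 with both agents. The combination libraries were the lowest, and the control libraries were spread more widely than those of any other group. SPDEF fell with the combination by 0.32 against control (SE 0.10, adjusted p = 0.0144) and by 0.34 against OSMI-2 (SE 0.10, adjusted p = 0.0111). The first call was lost without control replicate 2 (adjusted p = 0.244), combination replicate 1 (0.0588) or a trend (0.0824) and with upper quartiles set equal (0.124), and the second without OSMI-2 replicate 1 (0.083) or a trend (0.0724). With AT7519 alone the change of -0.22 was not called (adjusted p = 0.081), but was called in 5 settings, among them that without control replicate 1 (-0.39, adjusted p = 0.00734), edgeR (-0.26, adjusted p = 0.0379), equal totals (-0.56, adjusted p = 0.00027) and equal mitochondrial mRNAs (-1.14, adjusted p = 1.32e-16). On those 2 scales the combination gave -0.58 and -1.30 against control. The 3 genes nearest to SPDEF in the same measure were USP13, PEX14 and NUDT16P, at distances of 0.026, 0.028 and 0.042 against a median of 0.477. They too lie below the median by the way they were picked.

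EHF, an epithelial ETS factor linked to differentiation, was lowest with both agents. It had 39652 and 44409 normalised counts in control, 34825 and 35413 with OSMI-2, 35887 and 34114 with AT7519, and 22722 and 23390.5 with both agents. The libraries with either agent alone lay below control and overlapped with each other, and those with both lay below all others. EHF fell with AT7519 by 0.26 on the log2 scale (SE 0.07, adjusted p = 0.00809), a call lost without control replicate 2 (0.109), AT7519 replicate 2 (0.0526) or a trend (0.0591). With the combination it fell by 0.86 against control (1.82-fold lower, SE 0.07, adjusted p = 3.5e-07) and by 0.60 against AT7519 (1.52-fold lower, adjusted p = 0.000181). The interaction was -0.35 (SE 0.10) and was not called (adjusted p = 0.178).

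ELF3, another epithelial ETS factor and the one with the clearest interaction, moved up with AT7519 and down with the combination. Its values were 2989 and 2918 normalised counts in control, 2579.7 and 2760.1 with OSMI-2, 3554 and 3713 with AT7519, and 1875 and 1765 with both agents. None of the 4 groups overlapped, with AT7519 highest and the combination lowest. An antisense gene, ELF3-AS1, overlaps ELF3 on the opposite strand and is not among the deposited genes by that name. The strand setting is not given, so its reads may have been counted for ELF3. The rise with AT7519 was 0.30 (SE 0.09, adjusted p = 0.0149), turned to -0.04 with equal totals and -0.62 with equal mitochondrial mRNAs, and was not called without control replicate 1 (0.0512), control replicate 2 (0.079) or AT7519 replicate 2 (0.0647). The falls with the combination were 0.70 against control (adjusted p = 2.17e-05) and 0.997 against AT7519 (adjusted p = 4.84e-05), on the log2 scale. The interaction was -0.85 (SE 0.13, adjusted p = 0.0127). It was not called without control replicate 1 (0.0787), control replicate 2 (0.0811), OSMI-2 replicate 1 (0.0583) or OSMI-2 replicate 2 (0.102), nor by limma without a trend (0.254).

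**Figure D3:**
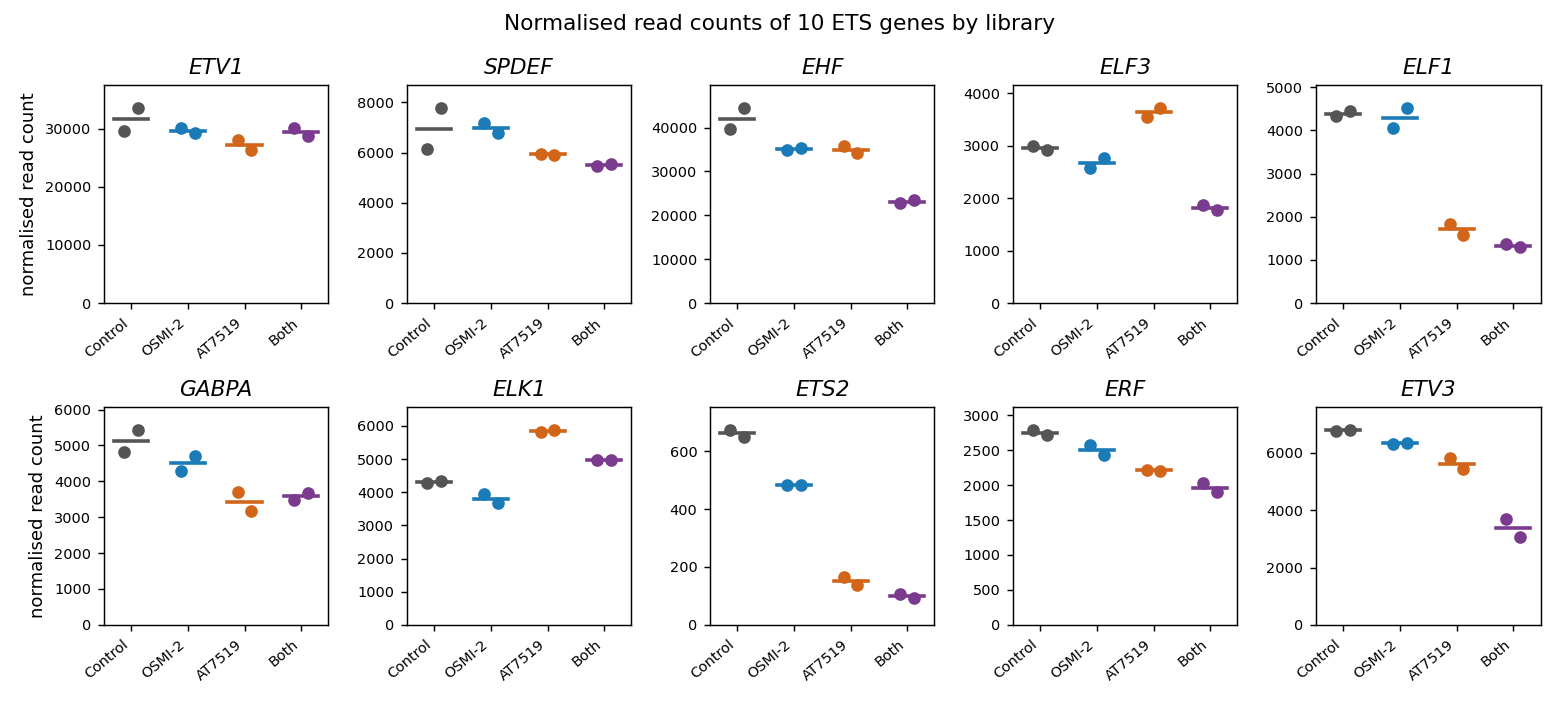
Normalised counts of the 10 genes in each of the 8 libraries, 1 panel per gene with its own axis, points for libraries and horizontal lines for group means. ETV1 stays between 26423 and 33528 throughout, ELF3 is highest with AT7519 at 3554 and 3713 and lowest with the combination at 1875 and 1765, and ETS2 drops from 673 and 650.2 in control to 106 and 93 with the combination.

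ELF1, a broadly expressed activator, was lower wherever AT7519 was present. It stood at 4329 and 4442 normalised counts in control, 4066 and 4512 with OSMI-2, 1839 and 1586 with AT7519, and 1368 and 1298 with both agents. The 4 libraries with AT7519 lay below the 4 without it. ELF1 fell 2.57-fold with AT7519 (log2 change -1.36, SE 0.10, adjusted p = 2.18e-07) and 3.29-fold with the combination (-1.72, adjusted p = 2.09e-08), and both calls held under all 20 alternative settings. The further fall of the combination below AT7519 (-0.36, adjusted p = 0.0268) was lost without AT7519 replicate 1 (0.174), combination replicate 1 (0.0514) or combination replicate 2 (0.136), and in 4 other settings. WBP4, a splicing-factor gene that starts 166 bases from ELF1 on the opposite strand and overlaps it, fell too, by 0.67 with AT7519 (adjusted p = 7.95e-05). Whether the counting used strand is not given in the sources used here, so reads over their overlap may be shared.

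GABPA, the DNA-binding subunit of GABP, acts with GABPB1 or GABPB2, which carry the activation domain, and is known for nuclear genes of mitochondrial proteins. It had 4818 and 5429 normalised counts in control, 4292 and 4719.7 with OSMI-2, 3690.0 and 3168 with AT7519, and 3492 and 3680.2 with both agents. The 4 libraries with AT7519 lay below the 4 without it and overlapped with each other. ATP5J, described below, overlaps GABPA on the opposite strand, with a mean of 16900 normalised counts against 4161 for GABPA. The strand setting is not given, so reads over that overlap may be shared. GABPA fell with AT7519 by 0.58 (1.5-fold lower, SE 0.10, adjusted p = 0.000256) and with the combination by 0.51 (1.43-fold lower, adjusted p = 0.000673). Against AT7519 the combination differed by 0.07 (95% interval -0.15 to 0.29, adjusted p = 0.696). The fall against OSMI-2 (-0.33, adjusted p = 0.0138) was lost without OSMI-2 replicate 2 (0.125), combination replicate 1 (0.0762) or a trend (0.0669).

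The partners of GABPA fell with AT7519 as well. Of 6 genes named as GABP targets, 3 rose, 1 fell and 2 were not called, where 26% of all tested genes rose and 27.2% fell. GABPB1 stood at 2295 and 2306 normalised counts in control and 1023 and 931 with AT7519, a fall of 1.24 on the log2 scale (adjusted p = 1.35e-06), and GABPB2 fell by 0.94 (adjusted p = 3.91e-06). COX4I1 and COX5B, subunits of cytochrome c oxidase, rose with AT7519 by 0.87 (adjusted p = 2.04e-07) and 0.83 (5.45e-07), but came to -0.04 and -0.09 with mitochondrial mRNAs set equal. TFAM, a mitochondrial transcription factor gene, rose by 0.38 (adjusted p = 0.00055), but was 0.035 with equal totals, 0.074 after quantile normalisation and -0.54 with mitochondrial mRNAs set equal. SKP2 fell by 0.29 (adjusted p = 0.0157), a call lost without control replicate 1 (0.0538), control replicate 2 (0.08) or AT7519 replicate 2 (0.0632). TFB1M was at -0.31 (adjusted p = 0.0679) and TFB2M at -0.026 (adjusted p = 0.823). ATP5J, an ATP synthase gene that overlaps GABPA and starts 1103 bases from it on the opposite strand, rose by 0.69 with AT7519 (adjusted p = 2.86e-06), and was -0.22 on that scale. It was the neighbour that fell with OSMI-2, by 0.30 (adjusted p = 0.039), a call lost without either control replicate (0.0826 and 0.405) or either OSMI-2 replicate (0.148 and 0.29).

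ELK1, a ternary complex factor that binds with SRF and is phosphorylated by ERK, was the one gene higher than control in both groups with AT7519 on the deposited scale, but lower in both with mitochondrial mRNAs set equal. Its values were 4267 and 4332 normalised counts in control, 3932 and 3689 with OSMI-2, 5816 and 5875 with AT7519, and 4974 and 4964 with both agents. No groups overlapped. ELK1 rose with AT7519 by 0.44 on the log2 scale (1.36-fold, SE 0.08, adjusted p = 0.000413), which became 0.10 with equal totals (adjusted p = 0.326) and -0.47 with equal mitochondrial mRNAs. The rise with the combination (0.21, adjusted p = 0.0454) became -0.05 and -0.77 on these scales. It was also lost without each control, OSMI-2 and combination library in turn, with adjusted p of 0.15 and 0.115 without control replicates 1 and 2, 0.0622 and 0.062 without the OSMI-2 replicates, and 0.117 and 0.114 without the combination replicates, as well as by DESeq2 (0.0535).

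SRF, the DNA-binding partner of ELK1, fell with AT7519 and further with the combination. SRF had 4378 and 4443 normalised counts in control, 2702 and 2964 with AT7519, and 1840.3 and 1773 with both agents, falls of 0.64 and 1.29 on the log2 scale (adjusted p = 4.63e-05 and 7.65e-08). Against AT7519 alone SRF fell by 0.65 (adjusted p = 0.000411) and its coactivator gene MKL1 by 0.73 (adjusted p = 0.00221). IER2, an immediate early gene of the SRF pathway, fell by 1.71 with AT7519 (adjusted p = 1.78e-07). MCL1, listed with IER2 among the targets of ternary complex factors, was higher with AT7519 than in control on the deposited scale.

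ETS2, a factor phosphorylated downstream of Ras and ERK, showed the largest falls of the 10 genes in the comparisons with AT7519 or the combination against control. It stood at 673 and 650.2 normalised counts in control, 483 and 482 with OSMI-2, 164 and 136 with AT7519, and 106 and 93 with both agents. No groups overlapped. ETS2 fell 4.41-fold with AT7519 (log2 change -2.14, SE 0.18, adjusted p = 4.81e-07) and 6.62-fold with the combination (-2.73, adjusted p = 4.44e-08), calls that held under all 20 alternative settings. The further fall of the combination below AT7519 (-0.59, adjusted p = 0.0363) was lost in 11 settings, among them those without control replicates 1 and 2 (0.0686 and 0.0682), OSMI-2 replicates 1 and 2 (0.0639 and 0.064), AT7519 replicate 1 (0.177) and combination replicate 2 (0.154).

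ERF, a repressor that ERK phosphorylation moves out of the nucleus, declined modestly. Its values were 2788 and 2715 normalised counts in control, 2572 and 2429 with OSMI-2, 2219 and 2200.5 with AT7519, and 2026 and 1897 with both agents. No groups overlapped. ERF fell with AT7519 by 0.32 on the log2 scale (SE 0.10, adjusted p = 0.012), lost without control replicate 1 (0.0702) and after quantile normalisation (0.205), and with the combination by 0.49 against control (adjusted p = 0.000564). Against OSMI-2 the fall of 0.35 (adjusted p = 0.00617) was lost without OSMI-2 replicate 1 (0.0628) and after quantile normalisation (0.225). AC006486.1, a protein-coding gene with a mean of 73.2 normalised counts, overlaps ERF on the same strand and starts 25 bases from it, so reads over the overlap may have been split or dropped.

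ETV3, another repressor of the ERF group, fell most where both agents were given. It had 6775 and 6798 normalised counts in control, 6319 and 6340.4 with OSMI-2, 5814 and 5422 with AT7519, and 3703 and 3075 with both agents. No groups overlapped, and the combination libraries stood well below the rest. ETV3 fell with the combination by 1.01 against control (2.01-fold lower, SE 0.10, adjusted p = 8.57e-07) and by 0.73 against AT7519 (adjusted p = 0.000245), both called in all 20 alternative settings. The fall with AT7519 alone (-0.27, adjusted p = 0.0261) was lost without control replicate 1 (0.0908), control replicate 2 (0.0966), AT7519 replicate 2 (0.123) or a trend (0.0931) and with upper quartiles set equal (0.0508). The interaction was -0.63 (SE 0.14, adjusted p = 0.0396). It was lost in 12 settings, among them those without control replicates 1 and 2 (0.188 and 0.162), either OSMI-2 replicate (0.183 each), AT7519 replicate 1 (0.11) and combination replicate 2 (0.165).

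**Figure D4:**
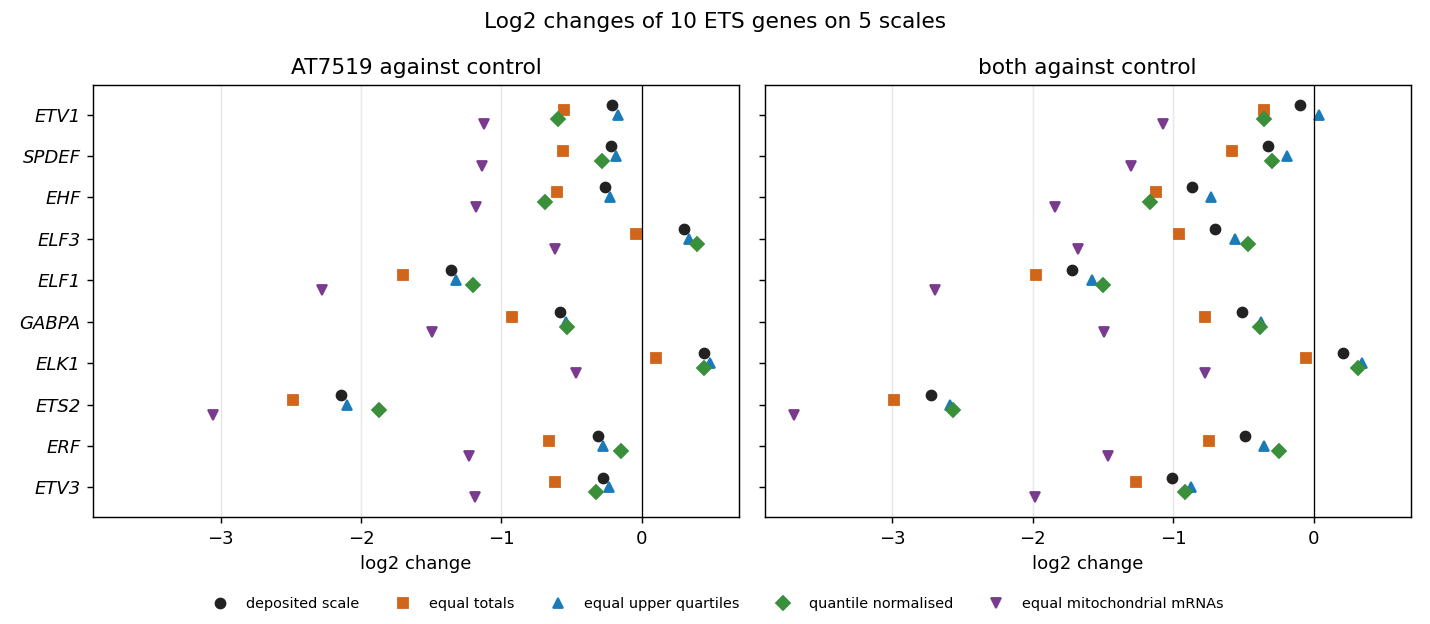
Log2 change of the 10 genes against control, for AT7519 and for the combination, on the deposited scale and with libraries set to equal totals, equal mitochondrial mRNAs, equal upper quartiles or equal quantiles. ETS2 and ELF1 lie far below 0 on every scale, ELF3 with AT7519 goes from 0.30 to -0.62, and ELK1 with the combination from 0.21 to -0.77.

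Of the other 18 ETS genes, 10 passed the filter, and none rose in any comparison. With AT7519 5 fell, with the combination 7 fell against control, 2 against AT7519 and 6 against OSMI-2, and limma called 0 with OSMI-2 (0 at an unadjusted p below 0.05, 0 by edgeR and 0 by DESeq2) and 0 in the interaction (2 unadjusted, 0 by edgeR and 2 by DESeq2). The shares of all tested genes that fell in the 4 comparisons with falls were 27.2%, 27.6%, 12.5% and 27.3%. With OSMI-2 3.02% of all tested genes were called, and in the interaction 1.04%. The median of these other ETS genes was -0.97 under AT7519 and -1.07 for both agents against control, beside -0.0042 and 0.02 over all tested genes. ETS1, the closest relative of ETS2, was at 221 and 228 normalised counts in control, 30.4 and 44.7 under AT7519, and 46.1 and 80.2 under both agents. Its falls were 2.57 and 1.87 on the log2 scale (adjusted p = 7.68e-06 and 0.000119). ELF4 fell by 1.66 with AT7519 (adjusted p = 5.07e-05) and ETV6, a repressor, by 1.27 (adjusted p = 1e-05). ELF2, a relative of ELF1, fell with the combination against AT7519 by 0.57 (adjusted p = 0.00122). ELK4, a ternary complex factor like ELK1, fell there by 0.25 (adjusted p = 0.0331), a call lost in 12 settings, among them those without AT7519 replicate 1 (0.186), combination replicates 1 and 2 (0.0915 and 0.132) and OSMI-2 replicates 1 and 2 (0.0503 and 0.0502). ERG reached at most 8.29 normalised counts, ETV4 at most 8.13, and FLI1 was listed at 0 in all 8 libraries.

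Among 18 genes for partners and regulators of ETS proteins, all tested, 12 fell and 2 rose with AT7519, 12 fell and 3 rose with the combination against control, 5 fell and 0 rose against AT7519 alone, and 12 fell and 4 rose against OSMI-2. Over all tested genes 27.2% fell and 26% rose, 27.6% fell and 26.3% rose, 12.5% fell and 7.21% rose, and 27.3% fell and 27.5% rose in these comparisons. The partners' median log2 change was -0.46 with AT7519 and -0.62 for both agents against control, beside all-gene medians of -0.0042 and 0.02. With OSMI-2 limma called 0 (2 at an unadjusted p below 0.05, 0 by edgeR and 1 by DESeq2), where 3.02% of all tested genes were called. MKL2, an SRF coactivator, fell by 1.20 with AT7519 (adjusted p = 1.31e-07), and DET1, part of the ligase complex that degrades ETV1 protein with COP1, by 1.18 (adjusted p = 0.000106). DDB1, of the same complex, rose by 0.58 and MAPK3, the gene of the kinase ERK1, by 0.56 (adjusted p = 3.08e-05 and 8.35e-05), but they came to -0.33 and -0.36 with mitochondrial mRNAs set equal.

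Of 28 genes described as ETS targets, 25 were tested, and they moved in both directions. SRF, described above, was counted both here and among the partners. With AT7519 10 rose and 7 fell (median 0.11), with the combination 8 rose and 11 fell against control (median -0.32), 1 rose and 7 fell against AT7519, and 8 rose and 7 fell against OSMI-2. The shares of all tested genes were 26% and 27.2%, 26.3% and 27.6%, 7.21% and 12.5%, and 27.5% and 27.3%, higher and lower. The all-gene medians were -0.0042 and 0.02 in the first and second of these. With OSMI-2 alone and in the interaction, 1 target each was called, where 3.02% and 1.04% of all tested genes were called. Rises among the targets depended on the scale: with mitochondrial mRNAs set equal, MMP7, which rose by 0.75 with AT7519 (adjusted p = 0.00291), came to -0.17, and with equal totals to 0.40, not called (adjusted p = 0.0783); COX4I1 and COX5B turned below 0 with equal mitochondrial mRNAs, as given above. TGFBR2, a TGF-beta receptor gene, fell with AT7519 by 2.47 (adjusted p = 1.86e-05) and SPRED1, an inhibitor of Ras signalling, by 1.84 (adjusted p = 1.41e-06). Against AT7519 alone the combination lowered SPRED2 by 0.93 (adjusted p = 0.000145) and MCL1, an anti-apoptotic gene, by 0.81 (adjusted p = 6.29e-05). The MCL1 fall was measured from a level with AT7519 that lay above control on the deposited scale. Its values were 25198 and 25973 normalised counts in control, 38254 and 32764 with AT7519, and 20373 and 20099 with both agents. MCL1 was also the one target called in the interaction, at -0.60 (adjusted p = 0.0241), lost without control replicates 1 and 2 (0.139 and 0.111), OSMI-2 replicates 1 and 2 (0.0941 and 0.144), AT7519 replicate 1 (0.0755) or combination replicate 2 (0.0971). With OSMI-2 alone MMP7 was the one target called, at -0.72 (adjusted p = 0.0466), lost without control replicates 1 and 2 (0.144 and 0.387), OSMI-2 replicates 1 and 2 (0.132 and 0.336) or combination replicates 1 and 2 (0.0524 and 0.053), and also with equal totals (0.0908), equal upper quartiles (0.0798), no filter (0.0947) or no trend (0.263).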

How the data were processed

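RNA-seq libraries of LNCaP cells were made with strand-specific TruSeq kits, per the labels' protocols. Each deposited value is a signal, the read count of a gene that the authors divided by 1 factor per library. The submitters' processing notes name hg19, GRCh37, DESeq2, HTSeq and STAR. Not given in the sources used here: roles, versions, annotation and strand setting. Dividing each column by its smallest step gave whole reads for 100% of values in every library, within a tolerance of 0.01. Depths were 60152710 to 154367238 reads, and 28 unnamed lines were left out.

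Testing took genes whose mean reached 10 normalised counts, and was done on log2(value + 1), with the pseudocount of 1, in 1 limma model (version 3.58.1, R 4.3.3) of the 4 group means with a mean-variance trend. Adding the pseudocount understates changes of low genes. The p-values are two-sided and adjusted by Benjamini-Hochberg over all 19393 tested genes per comparison. The threshold for a call was 0.05. The 10 genes and the lists of other ETS genes, partners, targets and neighbours were chosen with earlier results of these data known. All 10 genes were to be named. From each list came up to 3 called rises and 3 called falls per comparison with a mean of at least 50, of which the text gives a part. GABPB2, DGKB, TFAM, TFB1M, TFB2M, SKP2, ELK3, the changes of ELK4 against control and the values of SRF and MCL1 with AT7519 lay outside that rule. They were added after their values were seen. Of the partners, 2 listed genes are not reported here. The alternatives were pseudocounts of 0.5 and 5, no filter and a mean of at least 50, 4 other scalings, limma without a trend, edgeR 4.0.16 and DESeq2 1.42.0 on the recovered reads, a replicate block, and each library left out. Gene lengths, types and overlaps came from GENCODE by symbol, and promoter windows from RefSeq on GRCh38.p14, which is not the build of the values.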

Additional observations from a re-analysis of the deposited data

Results flagged for a closer look

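The effect of OSMI-2 in the presence of AT7519 differed from its effect without AT7519 for 2 of the 10 genes, by the interaction term of the limma model with Benjamini-Hochberg adjustment over all tested genes. For ELF3 the difference was -0.85 on the log2 scale (adjusted p = 0.0127), with both OSMI-2 libraries below both control libraries and both combination libraries below both AT7519 libraries. For ETV3 it was -0.63 (adjusted p = 0.0396), with the same order of the libraries. That order would also arise without an interaction and is given as description only. Both calls were lost when either control or either OSMI-2 library was left out.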

How the results depend on the processing

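Over 60 gene and comparison pairs and 20 alternatives, 1082 of 1200 values kept their direction and their side of the threshold, 75 lost the call, 16 gained it and 27 changed direction. Leaving out 1 library gave 5 to 9 called of the 10 genes with AT7519, 7 to 9 with the combination against control and against OSMI-2, 3 to 5 against AT7519, 0 to 2 in the interaction, and 0 with OSMI-2. The interaction called 1 gene with no filter, equal mitochondrial mRNAs, equal upper quartiles, quantile normalisation or edgeR, and 0 without the trend. The combination called 3 against AT7519 with equal totals, equal upper quartiles or no trend. OSMI-2 called 1 with equal mitochondrial mRNAs or DESeq2.

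With mitochondrial mRNAs set equal, which moved the median of all genes to -0.91 for AT7519 and -0.95 for both agents against control, the values that changed direction were as follows. With AT7519 they were ELF3 -0.62, ELK1 -0.47, DDB1 -0.33, MAPK3 -0.36, COX4I1 -0.042, COX5B -0.086, MMP7 -0.17, ATP5J -0.22, UXT -0.26 and FOXA1 -0.40. With the combination against control they were ELK1 -0.77, MAPK3 -0.38, DDB1 -0.46, TRIM25 -0.72, AGR2 -0.026, COX4I1 -0.22, UXT -0.48, ATP5J -0.49 and MIPOL1 -0.58. Against OSMI-2 they were ELK1 -0.47, DDB1 -0.23, MAPK3 -0.33, TRIM25 -0.55, ATP5J -0.065, UXT -0.16 and MIPOL1 -0.34, and SPDEF with OSMI-2 was -0.11. The interaction was 0.028 for ERF and 0.0031 for ELK1. With equal totals ELF1 with OSMI-2 was 0.042, ELF3 with AT7519 -0.044 and ELK1 with the combination -0.050, and against OSMI-2 TRIM25 with the combination was -0.034. With equal upper quartiles ELF1 with OSMI-2 was 0.025, ETV1 with the combination 0.040 against control and 0.072 against OSMI-2, and the ERF interaction 0.0051. After quantile normalisation ETV1 and ELF1 with OSMI-2 were 0.041 and 0.028 and the interactions of ERF and ELK1 0.0087 and 0.0006, and TRIM25 with the combination against OSMI-2 was -0.011. With 1 library left out the values that crossed 0 ranged from -0.16 to 0.18 for SPDEF and -0.11 to 0.041 for ELF1 with OSMI-2, from -0.29 to 0.052 for SPDEF and -0.082 to 0.013 for ERF in the interaction, from -0.039 to 0.027 for ETV1 with the combination against OSMI-2, and from -0.042 to 0.18 for GABPA with the combination against AT7519. The cause was not tested.

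Same-numbered replicates deviated together with correlations of 0.022 to 0.397, so the numbers are not taken as pairs. A fit with the replicate number as a block called 9, 9, 5, 9, 2 and 0 of the 10 genes with AT7519, the combination against control, against AT7519 and against OSMI-2, the interaction and OSMI-2, and over all genes it called 404 in the interaction and 865 with OSMI-2. Over all genes, calls ran from 0 to 1496 with OSMI-2 (main 586), 0 to 558 in the interaction (main 201) and 865 to 4295 for the combination against AT7519 (main 3815). Levels per kilobase depend on the length used: with the longest transcript, an alternative chosen after seeing the data, ETV1 ranked 2 and SPDEF 3 in control. Counting error was small at these depths for most of the 10 genes, but less so for ETS2, with 51 reads in its lowest library. The 2 libraries per group limited the precision. The limma model drew each gene's spread from all 4 groups (4 residual degrees of freedom) and from the trend over all tested genes (10.1 prior degrees of freedom). A standard error here therefore does not rest on a gene's own libraries alone.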
